A study of Mus musculus with 6 samples.

Results

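BCL2 family transcripts were compared between brains of E12.5 mouse embryos that had lost REST and p53 in neural progenitors and brains of control littermates. The family was taken as 10 genes, by their symbol in the platform annotation and with every probe: the pore-forming effectors Bax and Bak1, the BH3-only genes Bbc3, Pmaip1, Bid, Bcl2l11 and Bad, and the anti-apoptotic genes Bcl2, Bcl2l1 and Mcl1. Of these 10 genes, 9 had a probe, which gave 25 of the 25697 probes on the arrays. The expression of Bax was not analysed here. Total RNA from whole brain of C57/BL6 embryos was hybridized to Illumina Ref8 BeadChips, 1 array for each of 6 embryonic brains. The 3 knockout brains carried the Nestin Cre transgene together with Rest GTi/GTi and p53 fl/fl. The 3 control brains had both of these allele pairs and no Cre. GTi is an inverted gene trap that Cre turns back so that it ends Rest transcription ahead of the coding exons. Nestin Cre acts in nestin-positive progenitors and their progeny, so cells of other lineages in the brain, such as those of vessels and blood, keep the unrecombined alleles. Both genes were deleted together, with no group that lost 1 of them, so effects of REST and p53 loss cannot be told apart.

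The BCL2 family sets whether the outer membrane of the mitochondrion stays intact. BAX and BAK form pores that release cytochrome c, anti-apoptotic members such as BCL2, BCL-XL and MCL1 hold them in check, and BH3-only proteins sense damage or loss of trophic support and either block the anti-apoptotic members or engage the effectors directly. After DNA damage p53 induces the BH3-only genes Bbc3 (PUMA) and Pmaip1 (NOXA), whereas much of the control of BAD and BID is exerted on the protein, by phosphorylation and by cleavage. In the developing brain BCL-XL and MCL1 are needed for the survival of newborn neurons and of progenitors, respectively.

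Between 13417 and 13890 probes, or 52.2% to 54.1%, were detected on each array, meaning that the deposited detection p-value was under 0.05. Rest itself had a single probe, which was not detected on any of the 6 arrays, and Trp53 was not analysed here, so neither could check the genotype labels. Brain markers were present in both groups, with 6 of 7 neural progenitor genes (Pax6 not tested) and 7 of 7 young neuron genes passing the detection filter. Knockout replicate 2 stood apart, with a score of 40.7 on the first principal component (32.5% of the variance) against -14.8 to -0.84 for the other 5 arrays. In the deposited table, IDs and values run out of step after a pair of empty ID cells, and the family straddled that place: 6 of its 25 probes lay before the empty cells, 18 lay after them and needed a shift of 2 lines, and 1 Bcl2 probe lay between them and was moved by 1 line.

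No member of the family was called different between knockout and control. Levels are log2 intensities, differences are knockout minus control on that scale with their standard error (SE), and the test was that of limma across all 13756 probes that were detected on at least 3 of the 6 arrays, two-sided, with Benjamini-Hochberg adjustment. This detection filter kept 15 of the 25 probes and 7 genes: Bbc3, Bid, Bcl2l11, Bad, Bcl2, Bcl2l1 and Mcl1. At an adjusted p under 0.05, 0 of the 15 probes and 0 of all tested probes (0%) were called, and the adjusted p was 0.999 for each family probe. At an unadjusted p under 0.05 there were again 0 of 15, against 4.59% of all tested probes (2.25% higher and 2.34% lower in knockout). The unadjusted p ranged from 0.189 to 0.990. Knockout and control values overlapped for all 15 probes, whereas they did not overlap for 9.30% of all tested probes. The difference was positive for 5 probes and negative for 10, with a median of -0.04 and a range from -0.42 to 0.43, beside a median of 0.01 and an SD of 0.25 over all tested probes. With each gene represented by its brightest tested probe, 2 genes had a positive and 5 a negative difference, with a median of -0.04.

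**Figure D1:**
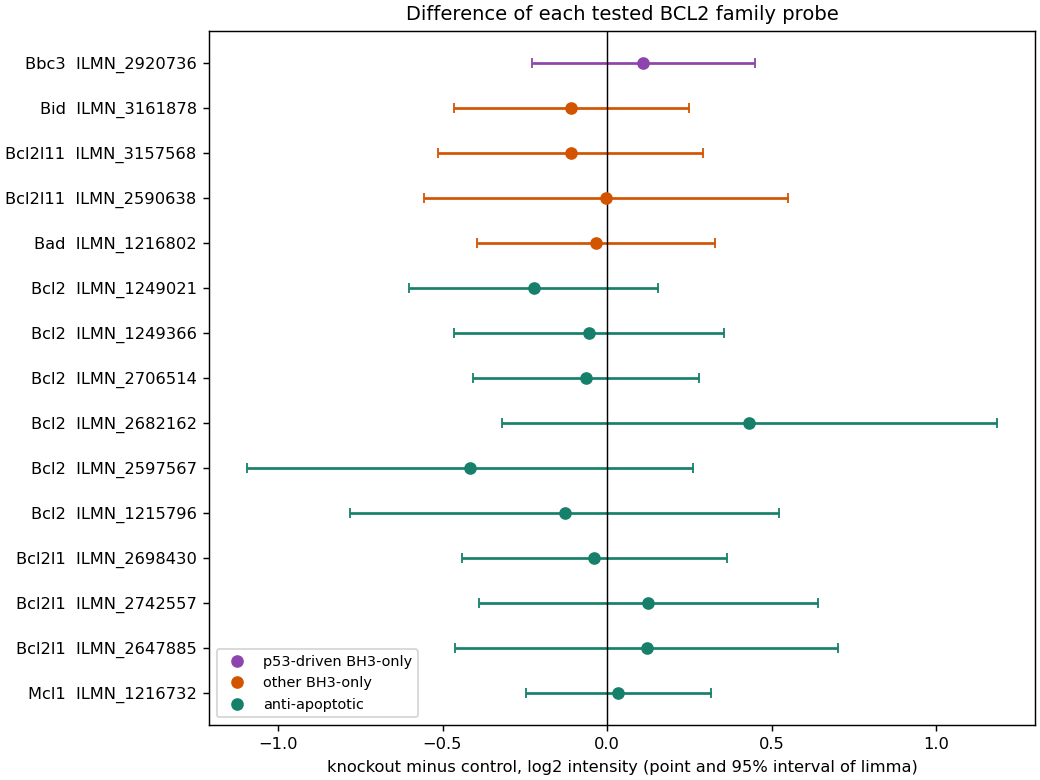
Difference between knockout and control (log2 intensity, x axis) for the 15 tested BCL2 family probes (y axis), with points for the estimate, bars for the 95% interval of limma and colours for the role in the family. Every interval crosses 0, and the widest belong to the Bcl2 probes with differences of 0.43 and -0.42.

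The precision set how much could have been missed. The SE ran from 0.12 for Mcl1 to 0.32 for 1 of the Bcl2 probes. In terms of fold change, the lower ends of the 95% intervals lay between 0.468 and 0.854 and the upper ends between 1.11 and 2.27. A change of a size within a probe's interval could not be told from no change with 3 arrays per group.

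Of the effectors, Bak1, whose product forms pores together with or in place of BAX, was near the detection limit. Probe ILMN_2945835 read 6.31, 5.79 and 6.41 in knockout replicates 1, 2 and 3 and 6.55, 6.54 and 6.59 in control replicates 1, 2 and 3. All 3 knockout values lay below all 3 control values, beside 9.69% without overlap among all probes that failed the detection filter. The probe was detected on 0 knockout arrays and on 1 control array, and it was neither tested nor given a fold. The lowest knockout value came from replicate 2, the array that stood apart.

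Of the BH3-only genes driven by p53, Bbc3 was clearly expressed in both groups. Probe ILMN_2920736 read 10.58, 10.37 and 10.23 in knockout replicates 1, 2 and 3 and 10.31, 10.40 and 10.14 in control replicates 1, 2 and 3. Knockout replicate 1 was the highest of the 6 arrays, and the other knockout values lay within the control range. The difference was 0.11 (SE 0.14, limma adjusted p = 0.999), a fold change of 1.08 with a 95% interval from 0.854 to 1.37. By their genotype labels these embryos lacked p53 in the progenitor lineage, which the arrays could not check. Whole brain RNA also holds transcripts of cells outside that lineage. The interval for this p53 target covers levels below and above control, and it rests on 1 of 3 Bbc3 probes.

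The other Bbc3 probes gave little. ILMN_2690621 was detected on 1 array of each group, with 7.11, 6.46 and 5.97 in knockout and 6.70, 5.90 and 6.05 in control, and the groups overlapped. ILMN_2690620 was detected on 1 knockout and 0 control arrays. It read 6.38, 6.42 and 6.91 in knockout against 5.93, 6.20 and 6.29 in control, again without overlap but mostly at background on both sides, and no fold was given. Bbc3 and Bak1 were the only genes of the family with groups that did not overlap, in 2 of the 10 probes that failed the detection filter, beside the 9.69% of all such probes.

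Pmaip1, the other p53-driven BH3-only gene, whose product chiefly binds MCL1, was not measurable. Probe ILMN_2670625 was detected on 1 array of each group and read 6.17, 6.58 and 6.36 in knockout and 6.09, 6.56 and 6.58 in control. Probe ILMN_1245289 was detected on 0 arrays and stayed between 5.48 and 5.81. No fold was given for either probe.

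**Figure D2:**
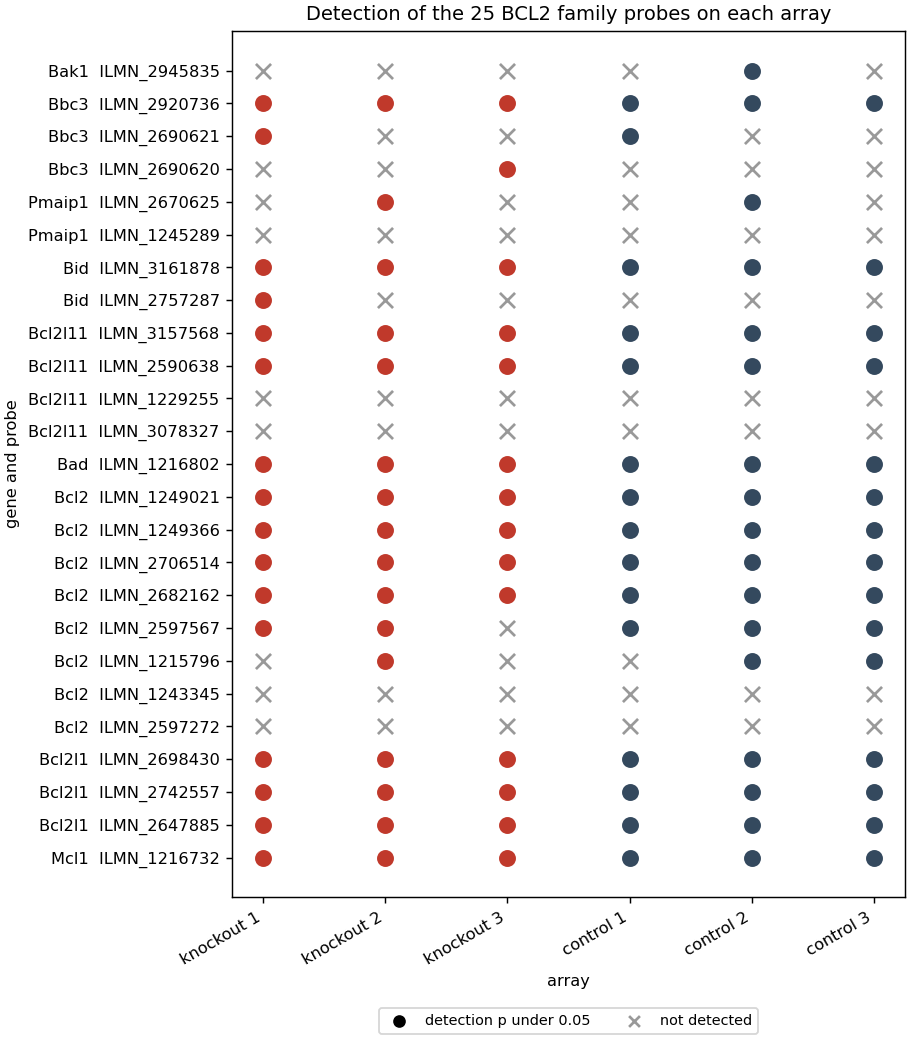
Detection of the 25 BCL2 family probes (y axis) on each of the 6 arrays (x axis), with filled circles for a detection p-value under 0.05 (red knockout, blue control) and grey crosses for no detection. Of the 25 probes, 13 were detected on all 6 arrays and 5 on none. Bak1 and both Pmaip1 probes were detected on at most 1 array of a group.

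The comparison of p53-driven BH3 genes with the rest of the family therefore rested on Bbc3 alone. Its difference of 0.11 stood beside a median of -0.07 over the other 6 tested genes, of which 1 had a positive and 5 a negative difference. Relative to the control mean, Bbc3 was at 0.30, 0.08 and -0.05 in knockout replicates 1, 2 and 3 and at 0.03, 0.11 and -0.14 in control replicates 1, 2 and 3. The median of the other 6 genes on the same scale was -0.11, 0.08 and -0.10 in knockout and -0.03, 0.10 and -0.05 in control. Only on knockout replicate 1 did Bbc3 and the rest move clearly apart.

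The promoters of the family were searched for the p53 half-site, the 10-base consensus to which a p53 dimer binds and which reads the same on both strands. In the 250 bases before the start of each RefSeq gene model (GRCm38.p6), an exact match was present in 7.13% of all 32851 promoters. Among the members 9 genes had 15 promoters, and 1 of these 15, that of Bax, held a match, beside the 7.13% of all promoters. The match begins 201 bases before the start site, on the minus strand at chr7:45467090-45467099. Whether p53 binds there was not tested. The 30 bases at chr7:45467080-45467109 are shown because they hold the only exact half-site found in the family, in capitals:
Bax: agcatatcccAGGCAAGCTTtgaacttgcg
None of the 3 Bbc3 promoters held these letters, which says nothing about p53 sites elsewhere in the gene or with mismatches. The Bbc3 promoters were rich in G and C, at 72.4% to 81.6% against a median of 52.4% over all promoters, and Bcl2 (74.8%) and Bcl2l11 (72.0% and 73.2%) were similar, whereas the 3 Bcl2l1 promoters held 47.6% to 53.2%.

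Among the BH3-only genes controlled by other means, Bid, whose product is cleaved by caspase 8 and links death receptors to the mitochondrion, was detected by 1 of its 2 probes on all arrays. ILMN_3161878 read 8.55, 8.72 and 8.48 in knockout and 8.85, 8.78 and 8.45 in control. The highest values were in controls 1 and 2 and the lowest was in control 3, so that the knockout values lay inside the control range. The difference was -0.11 (SE 0.15, limma adjusted p = 0.999). The other probe, ILMN_2757287, was detected only on knockout replicate 1 (6.72) and read between 5.50 and 6.43 elsewhere.

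Bcl2l11 encodes BIM, which is induced when neurons lose trophic support and binds all anti-apoptotic members. Probe ILMN_3157568 read 9.25, 9.82 and 9.68 in knockout and 9.66, 9.73 and 9.70 in control. The controls were tight, and knockout replicate 1 was low while knockout replicate 2 was the highest of all. The difference was -0.11 (SE 0.17), and it became 0.06 without knockout replicate 1. Probe ILMN_2590638 read 7.59, 8.36 and 7.93 in knockout and 7.66, 8.21 and 8.03 in control, a difference of -0.0030 (SE 0.23). The remaining Bcl2l11 probes, ILMN_1229255 and ILMN_3078327, were detected on 0 arrays.

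Bad encodes a BH3-only protein that survival signals switch off by phosphorylation. Its probe, ILMN_1216802, read 11.17, 10.80 and 11.02 in knockout and 10.94, 11.22 and 10.93 in control. Knockout replicate 2 was the lowest and control replicate 2 the highest of the 6 arrays. The difference was -0.03 (SE 0.15), with a fold interval from 0.761 to 1.26.

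**Figure D3:**
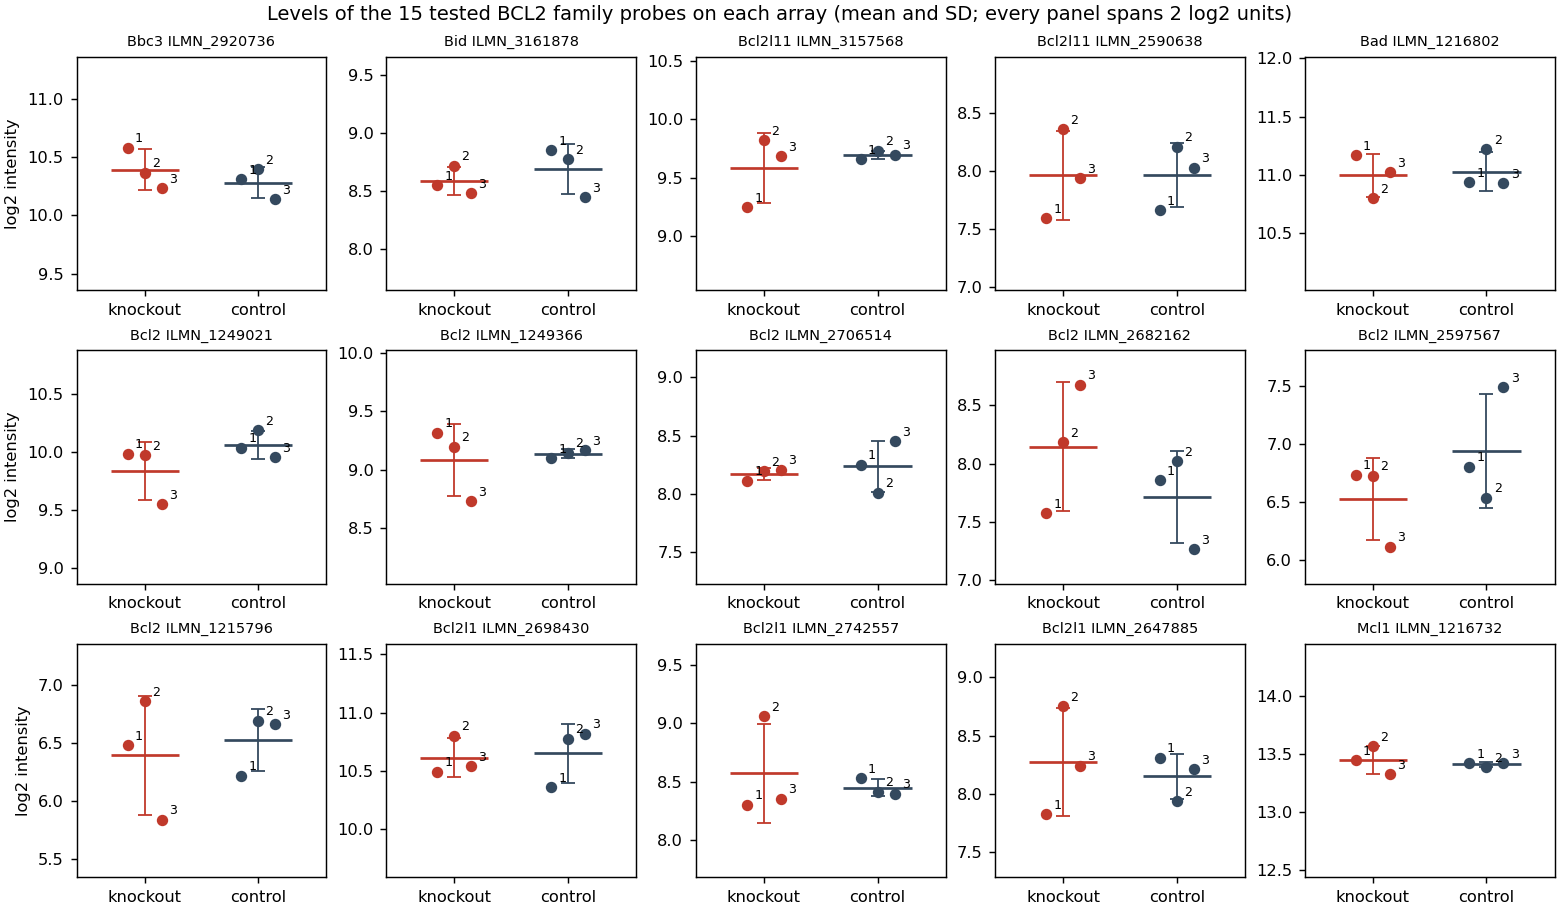
Log2 intensity (y axis) of the 15 tested BCL2 family probes in the 3 knockout (red) and 3 control (blue) brains, with points numbered by replicate, lines for the group mean and bars for 1 SD. Each panel spans 2 log2 units. Knockout and control overlap in every panel, and the control values lie closest together for Mcl1.

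The anti-apoptotic genes had the most probes. Bcl2, the founding member, which keeps mitochondria intact in postmitotic neurons, was represented by 8 probes, 5 annotated to 1 RefSeq transcript and 3 to another. Of these, 6 were tested and 2 were detected on 0 arrays. The difference was negative for 5 of the 6 and positive for 1, and these probes of the same gene spanned the whole range of the family. The 3 tested probes of the first transcript had differences of -0.22, -0.06 and -0.07, and those of the other transcript 0.43, -0.42 and -0.13.

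The widest differences were in a pair of Bcl2 probes whose arrays scattered. ILMN_2682162 read 7.58, 8.18 and 8.68 in knockout and 7.86, 8.02 and 7.26 in control, a difference of 0.43 (SE 0.32). Knockout replicate 1 lay among the controls, and without it the difference was 0.72 (limma adjusted p = 0.994). ILMN_2597567, annotated to the same transcript, went the other way, with 6.74, 6.73 and 6.12 in knockout and 6.81, 6.54 and 7.49 in control and a difference of -0.42 (SE 0.29). The array highest for the first of these probes, knockout replicate 3, was the lowest for the second. The second was detected on 2 knockout and 3 control arrays, and not on knockout replicate 3. ILMN_1215796, the third probe of that transcript, was detected on 1 knockout and 2 control arrays and differed by -0.13 (SE 0.27).

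The tested probes of the first transcript differed by less than that pair. ILMN_1249366 read 9.32, 9.20 and 8.73 in knockout and 9.10, 9.15 and 9.17 in control, with a difference of -0.06 (SE 0.17) that was 0.12 without knockout replicate 3. ILMN_2706514 stayed between 8.01 and 8.45 on all arrays and differed by -0.07 (SE 0.14). ILMN_1249021 read 9.98, 9.97 and 9.55 in knockout and 10.04, 10.19 and 9.96 in control, with a difference of -0.22 (SE 0.16). This is the probe whose ID lay between the empty cells, and no neighbouring line could check which values belong to it. Without it the median over the tested genes was still -0.04, and that over the genes other than Bbc3 was -0.05.

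Bcl2l1, which encodes BCL-XL, was tested with 3 probes. ILMN_2698430, the brightest, read 10.49, 10.80 and 10.54 in knockout and 10.36, 10.78 and 10.82 in control, and differed by -0.04 (SE 0.17). ILMN_2742557 read 8.30, 9.06 and 8.35 in knockout and 8.53, 8.42 and 8.40 in control, a difference of 0.13 (SE 0.22). ILMN_2647885 read 7.82, 8.75 and 8.24 in knockout and 8.31, 7.94 and 8.21 in control, a difference of 0.12 (SE 0.25). In both of the latter probes knockout replicate 2 was the highest of the 6 arrays, and without it both differences were -0.12.

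Mcl1, whose product is short-lived and is needed by dividing neural progenitors, was the member with the smallest SE. ILMN_1216732 read 13.45, 13.57 and 13.32 in knockout and 13.42, 13.39 and 13.42 in control. The controls lay within a narrow band and the knockout values lay on both sides of it. The difference was 0.03 (SE 0.12, limma adjusted p = 0.999), a fold change of 1.02 with a 95% interval from 0.844 to 1.24. Knockout replicate 2 was the highest, and without it the difference was -0.03.

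Knockout replicate 2 was therefore the highest array for Mcl1 and for 2 of the 3 Bcl2l1 probes. It was also the highest for both tested Bcl2l11 probes and for Bcl2 ILMN_1215796, and the lowest for Bad. The brightest Bcl2l1 probe read 10.80 there, below the 10.82 of control replicate 3. Cell type markers also differed on this array. Relative to the control mean, its Mcl1 level was 0.15, against -0.09 to 0.04 on the other 5 arrays. Probe ILMN_2742557 of Bcl2l1 was at 0.62 against -0.14 to 0.08, and ILMN_2647885 at 0.60 against -0.33 to 0.16. On the same array the median of the mesenchyme list (5 of 5 genes tested) was -3.37, that of choroid plexus (4 of 5, Kl not tested) -2.37, that of endothelium (5 of 7, Kdr and Cldn5 not tested) -0.99, that of erythroid cells (6 of 8 tested) -0.39 and that of young neurons (7 of 7) 0.44. The choroid plexus genes split: Ttr was at 7.89 against 12.95 to 14.01 on the other arrays and Clic6 at 5.75 against 9.94 to 10.62, whereas Folr1, at 6.60, lay within the range of the others and Otx2, at 13.74, was the highest of the 6 arrays. The summed mesenchyme intensity was 916 on this array, within a knockout range of 916 to 8253, and 6628 to 10438 in controls. For choroid plexus it was 14021 to 19872 in knockout and 20389 to 29831 in control, with Otx2 contributing most of the lowest value. For endothelium it was 1285 to 2530 and 2452 to 2996. For erythroid cells it was 170310 to 225870 and 199480 to 215060, with Hbb-y and Hba-a1 contributing most of each sum. The erythroid genes split as well. On knockout replicate 2 Hba-x was at 14.55 against 15.25 to 15.74 elsewhere and Hbb-bh1 at 13.37 against 14.11 to 14.89. Alas2 was at 10.23 against 10.61 to 11.15 and Hba-a1 at 15.97 against 16.07 to 16.12. Hbb-y, at 16.11, and Epor, at 6.75, lay within the range of the others. The summed young neuron intensity was 122190 on knockout replicate 2, 82545 on the lowest knockout array and 92963 to 96196 in controls. In bulk tissue fewer cells of a type and less RNA per cell cannot be told apart. The part of tissue makeup in the values of Mcl1, Bcl2l1 and the other family members was not tested.

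**Figure D4:**
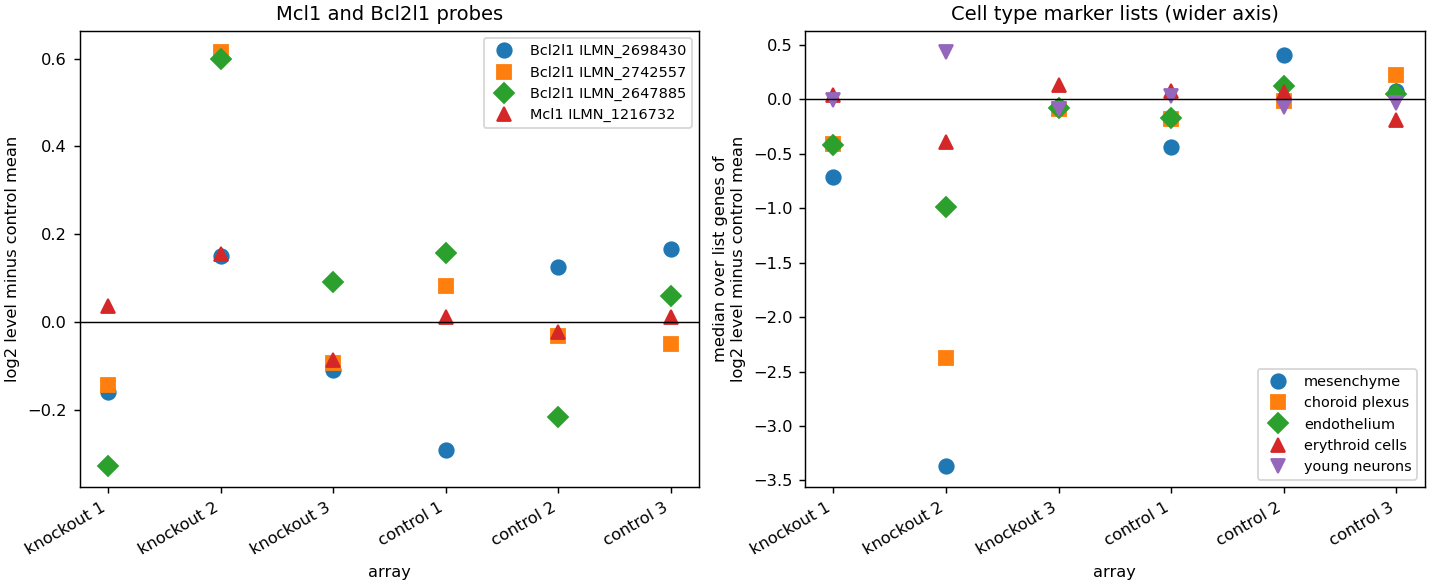
Left, log2 level minus the control mean (y axis) on each array (x axis) for the Mcl1 probe and the 3 Bcl2l1 probes. Right, the median of the same quantity over the tested genes of 5 cell type marker lists, on a wider axis. Knockout replicate 2 carries the highest Mcl1 value (0.15), the lowest mesenchyme median (-3.37) and the highest young neuron median (0.44).

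Among the other genes of the mitochondrial pathway none was called after adjustment. Of 16 further BCL2 family genes, 13 had a probe and 7 were tested, with 4 positive and 3 negative differences, a median of 0.11 and 0 at an unadjusted p under 0.05. Bmf, a BH3-only gene, read 8.50, 8.78 and 8.65 in knockout and 8.64, 7.95 and 8.20 in control and differed by 0.38 (SE 0.20). Bok, a BAX-like effector, read 11.34, 10.81 and 11.40 in knockout and 11.53, 11.44 and 11.49 in control, so that all knockout values lay below the controls, with a difference of -0.31 (SE 0.18) and the lowest value again on knockout replicate 2. In Bcl2l13, named after its values were seen, all knockout values lay above the controls (10.82, 10.93 and 10.89 against 10.58, 10.79 and 10.73), with a difference of 0.18 (SE 0.12). These 2 of the 7 stood beside the 9.30% of all tested probes without overlap. Bcl2l2, which encodes the anti-apoptotic BCL-w, differed by -0.08 (SE 0.11). Bik, Hrk and Bnip3 were not tested.

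Downstream of the mitochondrion, 11 of 15 genes of the apoptosome and of mitochondrial release were tested, with 6 positive and 5 negative differences and a median of 0.01. Apaf1, the scaffold that cytochrome c activates, differed by -0.04 (SE 0.13), cytochrome c itself (Cycs) by 0.03 (SE 0.15), the initiator caspase Casp9 by 0.06 (SE 0.12) and Diablo, which relieves caspase inhibition, by 0.02 (SE 0.12). Of these 11 genes, only Htra2, a mitochondrial protease named after its value was seen, had an unadjusted p under 0.05. Among all tested probes the share was 4.59%. The Htra2 difference was 0.34 (SE 0.12, limma adjusted p = 0.999). Of 5 caspase inhibitors 2 were tested, with Birc5 (survivin) at 0.05 (SE 0.14) and Xiap not tested, and of 9 death receptor genes 4 were tested, with differences from -0.24 to 0.23.

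The p53 pathway list, which the Bbc3 value can be set beside, had 12 of 17 genes tested, with 4 positive and 8 negative differences from -0.56 to 0.64, a median of -0.12 and 0 calls after adjustment. Mdm2, the ubiquitin ligase that p53 induces to limit itself, read 12.53, 12.70 and 12.51 in knockout and 12.81, 12.68 and 12.81 in control and differed by -0.18 (SE 0.12). Cdkn1a, the cell cycle inhibitor p21, differed by -0.25 (SE 0.18). Ccng1, a cyclin induced by p53, read 10.83, 11.24 and 10.78 in knockout and 11.12, 11.35 and 11.34 in control and differed by -0.32 (SE 0.16). Bbc3 stood at 0.11 beside these values, at 0.02 without knockout replicate 1 and at 0.04 without control replicate 3, and none of the 4 genes passed the test. Of the 12 genes, 2 had an unadjusted p under 0.05, beside 4.59% of all tested probes, and were named after their values were seen. Both were higher in knockout: Eda2r at 0.39 (SE 0.12) and Sesn2 at 0.64 (SE 0.23), each with an adjusted limma p of 0.999. Sesn2 lay near the detection limit and was detected on 3 knockout and 2 control arrays. It read 7.31, 7.31 and 6.72 in knockout and 6.12, 6.70 and 6.60 in control.

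**Figure D5:**
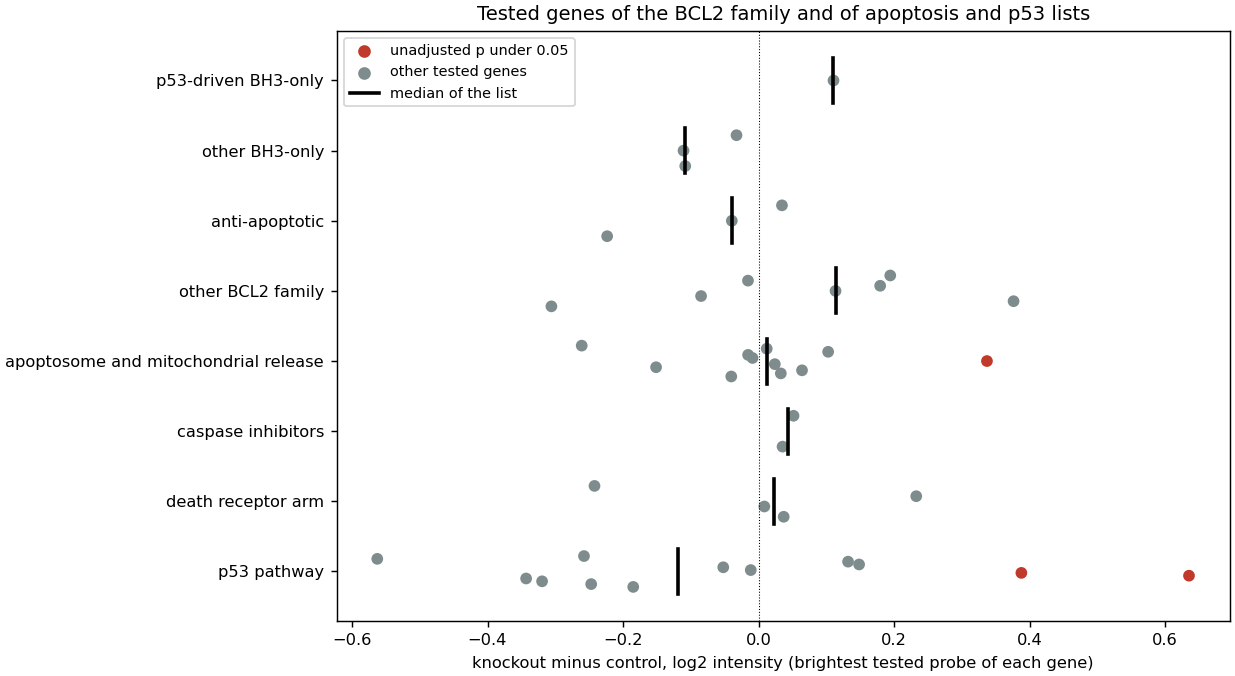
Difference between knockout and control (log2 intensity, x axis) for the brightest tested probe of each gene, by list (y axis), with black bars for list medians and red points for an unadjusted p under 0.05. The 3 family rows at the top have 0 red points, the apoptosome list has 1 and the p53 list has 2. Of all tested probes, 4.59% had an unadjusted p under 0.05.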

How the data were processed

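The authors processed the Illumina BeadChips with BeadStudio and quantile-normalized them with lumi. They deposited linear intensity values and detection p-values, which the files hold for each probe and array. The genome build was not given in the sources used here. Of the 25699 lines, 2 had an empty ID cell (lines 3893 and 3895). These cells were dropped and IDs were paired with values in order, so that the final 2 value lines went unused. Mean levels of adjacent probes of the same gene correlated best with this pairing, at r = 0.514 over 140 pairs in the 500 lines after the empty cells, against 0.162 as deposited. Across all later lines, r was 0.473 over 5962 pairs. Probes are not independent replicates in these correlations.

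Here intensities were background-corrected, normalized and turned to log2 with neqc (limma 3.58.1, R 4.3.3), from the detection p-values and with an offset of 16. Sorted by size, the deposited intensities differed by at most 1.6% between arrays, so neqc was applied to values that were already normalized. Probes detected at p under 0.05 on at least 3 of 6 arrays were fitted with lmFit and eBayes, with no covariates, and adjusted by Benjamini-Hochberg; the script was tested on simulated data. A gene with several tested probes was represented in medians by the one with the highest mean intensity, and the number of arrays limits the precision. All 10 members were named with every probe. Other genes were named by role, except Bcl2l13, Htra2, Eda2r and Sesn2, which were named after their values were seen. Members and lists were chosen with earlier results of these data known. Promoters came from RefSeq (GRCm38.p6), which held 9 of the 10 members. Alternatives covered background correction, filter, test, replicate block, deposited IDs, the other deposited table and each array left out.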

Additional observations from a re-analysis of the deposited data

How the results depend on the processing

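Across 17 alternative settings 0 BCL2 family probes were called after adjustment. The count of all probes called rose from 0 to 1 with no background correction, with normexp, with the trend and robust options and with the values and IDs of the other deposited table, and this probe was in no case one of the family. With no detection filter 1169 probes had an unadjusted p under 0.05 in place of 632, and all 25 family probes were fitted with 0 of them under 0.05. With the probe IDs as deposited, IDs after the empty cells take the values of other lines, and the family median was 0.065 in place of -0.04. Bid was then given 0.17. The brightest Bcl2l1 probe was given 0.13, which is the difference of Bcl2l1 ILMN_2742557 in the main pairing. In the other deposited table these values were 0.16 and 0.084. Bcl2l11 ILMN_2590638, at -0.0030, turned to 0.0024 with no background correction and in the methods' t-test and to 0.0013 with normexp.

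With 1 array left out in turn, the count of probes called after adjustment stayed at 0, that under an unadjusted p of 0.05 ran from 467 to 901, and that of family probes from 0 to 1. The one was Bcl2 ILMN_2682162 without knockout replicate 1. The family median ran from -0.13 (without knockout replicate 2) to 0.02, and that of the genes other than Bbc3 from -0.15 to -0.02. Bbc3 stayed between 0.02 and 0.19. Probes that changed sign ranged from -0.23 to 0.058 (Bcl2l11 ILMN_3157568), -0.20 to 0.18 (Bcl2l11 ILMN_2590638), -0.12 to 0.066 (Bad), -0.17 to 0.12 (Bcl2 ILMN_1249366), -0.18 to 0.041 (Bcl2 ILMN_2706514), -0.28 to 0.15 (Bcl2 ILMN_1215796), -0.19 to 0.044 (Bcl2l1 ILMN_2698430), -0.12 to 0.26 (Bcl2l1 ILMN_2742557), -0.12 to 0.34 (Bcl2l1 ILMN_2647885) and -0.025 to 0.096 (Mcl1). The causes were not tested.

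Knockout and control samples share the numbers 1 to 3, and the sample titles do not say whether the numbers pair them. Deviations of same-numbered arrays from their group means correlated at -0.01, -0.08 and -0.15, against -0.03 to 0.12 for arrays of unlike number. Deviations within a group of 3 sum to 0, so these correlations depend on each other and cannot exclude a pairing. With the replicate block 552 probes had an unadjusted p under 0.05, 0 of them in the family, and no call changed.

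Leaving out the Bcl2 probe between the empty cells was chosen after seeing the data. Bak1, Pmaip1 and the dim Bbc3 probes lay too near background for any statement on change.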
